A study of Mus musculus with 24 samples.

Results

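Transcripts of 5 genes of the chemokine system, the secreted CXC ligands Cxcl1, Cxcl2 and Cxcl10, the membrane-bound ligand Cxcl16 and the chemokine-binding receptor Ccrl2, were followed across the 6 treatment groups of a microarray experiment on BV-2 microglial cells. Every probe whose gene symbol in the probe annotation was one of these 5 was taken, which gave 1 probe per gene, that is 5 of 24611 probes and 5 of 15161 named genes. BV-2 is an immortalized mouse microglial line, and all groups were grown as this single line in the same serum-containing medium. Control cells (Cntr) carried 6 arrays, cells given 10 µM tetrahydrocannabinol (THC) for 6 h carried 4, and cells given 10 µM cannabidiol (CBD) for 6 h carried 2. Cells given 100 ng/ml of bacterial lipopolysaccharide (LPS) for 4 h carried 6 arrays, and the combined groups THC+LPS and CBD+LPS, in which the cannabinoid was added 2 h before the LPS, carried 4 and 2. These numbers are those of the sample labels. The study's text gives 4 arrays per group in its methods and 6 in its results. Neither number holds for every group, and neither is the 2 of the CBD and CBD+LPS labels. THC and CBD are isomers, THC with a closed pyran ring and CBD with that ring open and a free hydroxyl group in its place, and both had been dissolved in ethanol. The comparisons address how LPS alters these transcripts, what each cannabinoid does on its own, and what it does to the LPS-stimulated level.

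Chemokines are small proteins that direct the migration of leukocytes along concentration gradients, and microglia release them when pattern recognition receptors are engaged. LPS is sensed by Toll-like receptor 4, which signals through the adaptor MyD88 to the transcription factor NF-κB and, through the adaptor TRIF, to interferon regulatory factors and a secondary release of type I interferon. Cxcl1 and Cxcl2 attract neutrophils through Cxcr2, Cxcl10 is an interferon-inducible ligand of Cxcr3 that attracts activated T cells, Cxcl16 is made as a transmembrane protein that binds Cxcr6 and takes up oxidized lipoprotein, and Ccrl2 is an atypical receptor that presents the attractant chemerin at the cell surface without the usual G protein signalling.

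The sequences just before the transcription starts are shown because LPS-driven transcription of this family is known to use NF-κB and interferon response elements, and because 4 of the 5 genes had an entry in the RefSeq promoter set. Each run holds the 250 bases upstream of the start in build GRCm38.p6, written 5′ to 3′ along the gene, with capitals for matches to a κB-like motif (GGGNNNTTCC, either strand) or, in Cxcl10 alone, also to an interferon response-like motif (GAAANNGAAA, either strand). The windows are Cxcl1 at chr5:90890995-90891244, plus strand, Cxcl2 at chr5:90903649-90903898, plus strand, Cxcl10 at chr5:92348890-92349139, minus strand, and the first of 3 annotated starts of Ccrl2 at chr9:111057519-111057768, minus strand.
Cxcl1: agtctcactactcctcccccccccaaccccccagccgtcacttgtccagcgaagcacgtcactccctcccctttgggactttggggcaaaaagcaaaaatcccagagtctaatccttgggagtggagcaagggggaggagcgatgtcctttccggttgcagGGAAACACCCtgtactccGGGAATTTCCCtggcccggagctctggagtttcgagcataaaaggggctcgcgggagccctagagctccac
Cxcl2: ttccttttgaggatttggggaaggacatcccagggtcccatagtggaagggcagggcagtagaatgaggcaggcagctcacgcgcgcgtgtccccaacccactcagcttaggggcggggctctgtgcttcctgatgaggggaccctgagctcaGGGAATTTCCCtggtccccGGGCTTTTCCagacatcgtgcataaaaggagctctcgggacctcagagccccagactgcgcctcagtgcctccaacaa
Cxcl10: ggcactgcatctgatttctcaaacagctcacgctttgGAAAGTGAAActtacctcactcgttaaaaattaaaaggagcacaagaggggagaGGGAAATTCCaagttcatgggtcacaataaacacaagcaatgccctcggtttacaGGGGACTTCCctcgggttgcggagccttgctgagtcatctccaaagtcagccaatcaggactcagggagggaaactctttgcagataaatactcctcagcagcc
Ccrl2: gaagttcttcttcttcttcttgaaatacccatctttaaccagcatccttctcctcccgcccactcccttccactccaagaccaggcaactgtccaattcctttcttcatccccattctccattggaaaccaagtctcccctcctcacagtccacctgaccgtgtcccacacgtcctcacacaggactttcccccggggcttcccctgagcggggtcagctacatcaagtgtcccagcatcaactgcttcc
Cxcl1, Cxcl2 and Cxcl10 each held 2 separate κB-like stretches. One stretch, GGGAATTTCCC, was the same 11 letters in Cxcl1 and Cxcl2, which lie beside each other on chromosome 5, and holds 2 overlapping matches to the motif, one on each strand. It began 71 bases before the start in Cxcl1 and 97 bases before it in Cxcl2. The stretch GAAAGTGAAA of Cxcl10, also on chromosome 5, began 213 bases before the start. A κB-like match was present in 4.65% and an interferon response-like match in 2.98% of 32851 promoter windows of this length. None of the 3 Ccrl2 windows, on chromosome 9, held either set of letters. Other forms of these motifs were not searched, so this does not show that Ccrl2 lacks such elements. These matches are descriptions of sequence, and binding was not measured.

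Values are the authors' log2 signals, for which 1 unit is a doubling, and a probe was called detected on an array where its detection p-value was under 0.05. On single arrays 40.6% to 44.8% of probes were detected, and median signals lay between 108.9 and 156.6 before normalization. Arrays of one group correlated at 0.9862 or higher, and no 2 arrays held the same values. Of 12 microglial and macrophage markers, 10 were on the array and 8 were detected, among them Aif1, Trem2, Tyrobp, Ptprc and Fcgr1 on all 24 arrays, whereas P2ry12 and Sall1, which define brain-resident microglia, were detected on none. Of the neuron list, Tubb3 alone was detected, on all 24 arrays. Astrocyte and endothelial lists each had 1 marker detected on at least 1 array, and oligodendrocyte and fibroblast lists had none. The methods call the arrays of a treatment independent replicates without saying whether each came from its own culture, so p-values measure the spread between arrays, which may be technical.

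LPS upregulated Cxcl2, Cxcl10, Cxcl16 and Ccrl2 in cells without cannabinoid. Cxcl2 rose the most, with a lower bound of 88.4-fold set by the detection limit on the values as deposited. It was followed by Cxcl10 at 44.0-fold, Ccrl2 at 32.8-fold and Cxcl16 at 1.74-fold. Cxcl1 was not called. In RNA of a whole culture, more transcript per cell and more cells that carry it cannot be told apart. The same 4 genes were called higher after LPS in THC-treated and in CBD-treated cells. Of all probes, 5.63% were called higher by LPS in cells without cannabinoid, 3.96% in THC-treated cells and 1.79% in CBD-treated cells, at a Benjamini-Hochberg adjusted p under 0.05 in limma. These comparisons hold 6, 4 and 2 arrays per group, so the shares cannot be set against one another as sizes of response. The median log2 difference over the 5 genes was 5.03 for LPS versus Cntr, 4.96 for THC+LPS versus THC and 3.66 for CBD+LPS versus CBD, against -0.01 over all probes in each. Each of these medians is the value of Ccrl2, and the 5 genes did not all order the comparisons this way. The medians are descriptions, since the 5 genes were put together with earlier results of these data known.

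**Figure D1:**
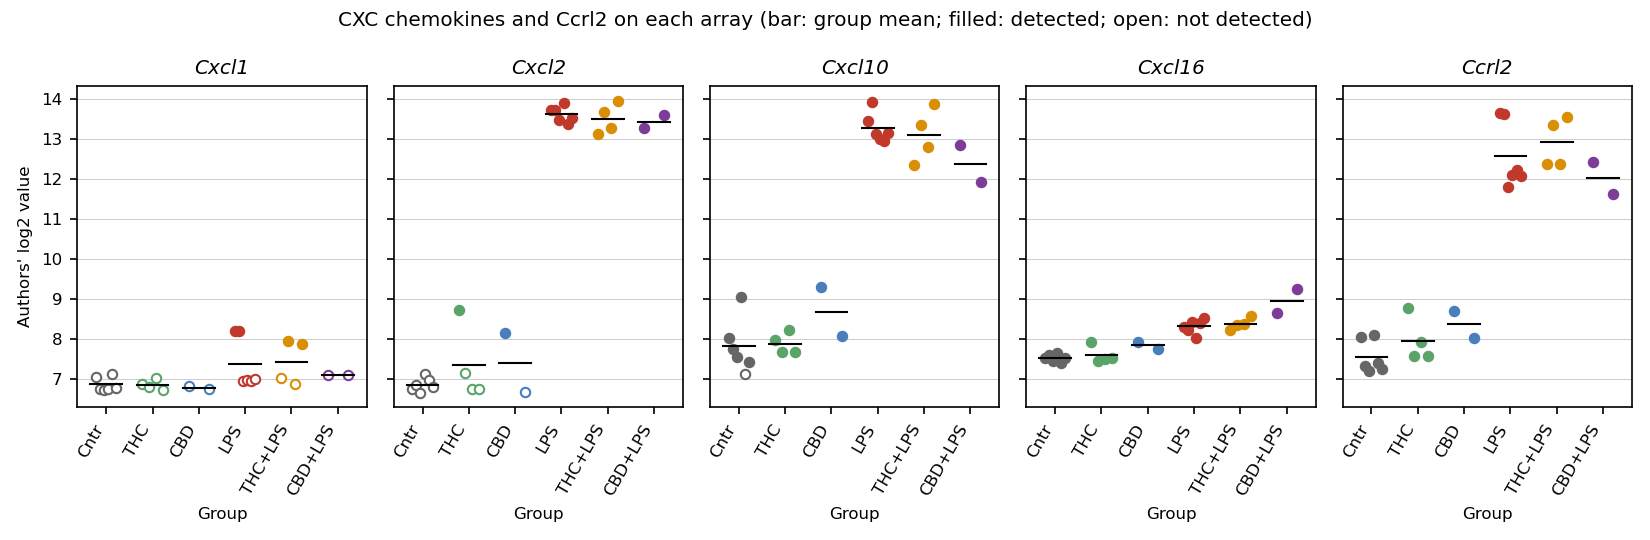
Authors' log2 value (vertical axis) of each of the 5 genes on all 24 arrays, by group, with a bar at the group mean, filled points where the probe was detected and open points where it was not. The LPS-treated arrays of Cxcl2, Cxcl10 and Ccrl2 lie at 11.62 or above, all other arrays of these genes lie at 9.29 or below, and Cxcl1 is detected on 4 arrays.

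Cxcl2, a neutrophil attractant, was close to background until LPS was added. Its log2 values on the 6 Cntr arrays were 6.65 to 7.13 with a median of 6.82, and the probe was detected on none of them. On the 4 THC arrays it read 8.73, 7.15, 6.74 and 6.75 and on the 2 CBD arrays 8.14 and 6.66, and in each of these groups replicate 1 alone was detected. The 6 LPS arrays ran from 13.39 to 13.90 with a median of 13.64. The 4 THC+LPS arrays read 13.15, 13.68, 13.28 and 13.97, and the 2 CBD+LPS arrays 13.27 and 13.62. Group means ordered as LPS 13.63 ± 0.19 (SD, n = 6), THC+LPS 13.52 ± 0.38 (n = 4) and CBD+LPS 13.45 ± 0.24 (n = 2), then CBD 7.40 ± 1.04, THC 7.34 ± 0.94 and Cntr 6.86 ± 0.17. The ranges of the LPS-treated groups overlapped one another, as did those of the groups without LPS, and the only gap lay between the groups with and without LPS.

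The difference in Cxcl2 between LPS and Cntr was 6.77 log2 as measured (SE 0.26, adjusted p = 4.15e-15). Because no Cntr array detected the probe, the measured ratio of 109-fold is replaced by a lower bound of 88.4-fold, the LPS mean set against the lowest detected signal of each Cntr array. The bound covers neither the spread between arrays nor background correction. With background-corrected neqc values the difference between LPS and Cntr was 5.95 log2, which lies below it. Without that correction, the difference in THC-treated cells was 6.17 (SE 0.32, 72.3-fold, adjusted p = 2.51e-12) and in CBD-treated cells 6.05 (SE 0.45, 66.1-fold, adjusted p = 1.49e-08). In both of these comparisons the level without LPS rests on a single detected array. Without CBD replicate 1 the difference in CBD-treated cells was 6.78, and without THC replicate 1 that in THC-treated cells was 6.64. No remaining CBD or THC array then detected the probe, so both values are set against background.

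Cxcl10, the interferon-inducible ligand, had a measurable level before LPS. Its Cntr arrays ran from 7.12 to 9.06 with a median of 7.65 and were detected on 5 of 6, and replicate 4 stood above the rest. The THC arrays read 7.97, 7.67, 8.22 and 7.67 and the CBD arrays 9.29 and 8.06. After LPS alone the values ran from 12.97 to 13.93 with a median of 13.15. The THC+LPS arrays read 12.36, 13.35, 12.81 and 13.89 and the CBD+LPS arrays 12.85 and 11.93, so that both CBD+LPS arrays lay below all LPS arrays and 1 of the 2 lay below all THC+LPS arrays. Means ordered as LPS 13.28 ± 0.37 (SD, n = 6), THC+LPS 13.10 ± 0.66 (n = 4), CBD+LPS 12.39 ± 0.65 (n = 2), CBD 8.68 ± 0.87, THC 7.88 ± 0.27 and Cntr 7.82 ± 0.68.

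LPS raised Cxcl10 by 5.46 log2 over Cntr (SE 0.29, 44.0-fold, adjusted p = 1.49e-12), the fifth largest rise of all probes. The rise was 5.22 in THC-treated cells (SE 0.35, 37.3-fold, adjusted p = 3.34e-10) and 3.71 in CBD-treated cells (SE 0.50, 13.1-fold, adjusted p = 6.95e-05). The rank among all probes was 4 with THC and 14 with CBD. No pair of neighbouring groups in this order was called as different, apart from the step from CBD to CBD+LPS.

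Ccrl2, the receptor that holds chemerin at the cell surface, was detected on all 24 arrays. The Cntr arrays ran from 7.19 to 8.09 with a median of 7.36. The THC arrays read 8.77, 7.58, 7.92 and 7.56, and the CBD arrays 8.71 and 8.02. The LPS arrays fell into 2 separate levels, replicates 1 and 2 at 13.65 and 13.64 and replicates 3 to 6 at 11.81, 12.11, 12.22 and 12.08. The THC+LPS arrays did likewise, with replicates 2 and 4 at 13.36 and 13.56 and replicates 1 and 3 at 12.39 and 12.38. The CBD+LPS arrays, at 12.42 and 11.62, lay below the upper level of both groups. Means ordered as THC+LPS 12.92 ± 0.62 (SD, n = 4), LPS 12.59 ± 0.83 (n = 6), CBD+LPS 12.02 ± 0.57 (n = 2), CBD 8.36 ± 0.48, THC 7.96 ± 0.57 and Cntr 7.55 ± 0.41.

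The LPS response of Ccrl2 was 5.03 log2 (SE 0.32, 32.8-fold, adjusted p = 2.75e-11), the eighth largest of all probes, and no array with LPS overlapped one without it. It was 4.96 in THC-treated cells (SE 0.39, 31.2-fold, adjusted p = 3.54e-09) and 3.66 in CBD-treated cells (SE 0.55, 12.6-fold, adjusted p = 0.000208). Among all probes, 3.89% had every LPS array above every Cntr array, and the shares were 5.77% for THC+LPS over THC and 17.1% for CBD+LPS over CBD, where each group holds 2 arrays.

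Cxcl16, the transmembrane ligand, changed within a narrow range. It was detected on all 24 arrays, and its Cntr values ran from 7.40 to 7.64 with a median of 7.53. The THC arrays read 7.93, 7.45, 7.50 and 7.52, with replicate 1 apart from the rest, and the CBD arrays 7.93 and 7.75. The LPS arrays ran from 8.03 to 8.52 with a median of 8.36. The THC+LPS arrays, at 8.23, 8.35, 8.38 and 8.56, fell among them or just above. The CBD+LPS arrays, at 8.65 and 9.25, lay above every other array. Means ordered as CBD+LPS 8.95 ± 0.43 (SD, n = 2), THC+LPS 8.38 ± 0.14 (n = 4), LPS 8.32 ± 0.17 (n = 6), CBD 7.84 ± 0.12, THC 7.60 ± 0.22 and Cntr 7.52 ± 0.09. THC+LPS and LPS did not separate, nor did THC and Cntr.

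Cxcl16 rose by 0.80 log2 with LPS (SE 0.10, 1.74-fold, adjusted p = 1.88e-06), by 0.78 in THC-treated cells (SE 0.12, 1.72-fold, adjusted p = 8.27e-05) and by 1.11 in CBD-treated cells (SE 0.17, 2.15-fold, adjusted p = 0.000341). It ranked 548 among all rises after LPS alone. The deposited signals behind these values were low, 164.3 to 249.9 on Cntr arrays and 231.6 to 349.9 on LPS arrays. The log2 values have no background subtracted, and with background-corrected neqc values the difference between LPS and Cntr was 0.34.

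Cxcl1, the other neutrophil attractant, was detected on 4 of the 24 arrays. On the 12 arrays without LPS its values lay between 6.71 and 7.13 and it was never detected. The LPS arrays read 8.21 and 8.20 for replicates 1 and 2 and 6.96, 6.96, 6.94 and 6.99 for the others. Of the THC+LPS arrays, replicates 2 and 4 read 7.94 and 7.87 and replicates 1 and 3 read 7.03 and 6.88, and both CBD+LPS arrays read 7.10. The 4 arrays at 7.87 or above were the ones that detected the probe. Means were 7.38 ± 0.64 for LPS (SD, n = 6), 7.43 ± 0.55 for THC+LPS (n = 4), 7.10 ± 0.0002 for CBD+LPS (n = 2), 6.86 ± 0.18 for Cntr, 6.85 ± 0.13 for THC and 6.78 ± 0.05 for CBD, and no group stood clear of its neighbours. Cxcl1 and Cxcl2 thus sat side by side in the genome with a shared κB-like stretch in their promoters. Their measured LPS responses were 0.51 (SE 0.22, adjusted p = 0.137) and 6.77 log2. The Cxcl1 response rests on a single probe near background, so a low transcript level and a weakly reading probe cannot be told apart. In THC-treated cells the Cxcl1 difference was 0.58 (SE 0.26, adjusted p = 0.231) and in CBD-treated cells 0.31 (SE 0.37, adjusted p = 0.845).

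The arrays that detected Cxcl1 also held the upper level of Ccrl2, and they stood apart in other genes as well. After group means were removed, the first principal component of all other probes detected on at least 2 arrays took up 34.4% of the remaining spread. Its coordinate was 0.32 and 0.35 on LPS replicates 1 and 2 and 0.24 and 0.26 on THC+LPS replicates 2 and 4. It was -0.25 to -0.15 on the other LPS and THC+LPS arrays. Coordinates are relative to each group's own mean, so the 2 CBD+LPS arrays, at -0.08 and 0.08, must mirror each other. Those arrays therefore cannot be placed against the levels of the other groups. The probes of Mmp12, H2ac19, Mmp13, H2ac18 and Tnfsf13 contributed most to it. Without LPS, the coordinate was high on Cntr replicates 1 and 4, at 0.27 and 0.30, where Ccrl2 read 8.06 and 8.09 against 7.41 or less on the other Cntr arrays and Cxcl10 read 8.02 and 9.06 against 7.74 or less. On THC replicate 3, at 0.26, Ccrl2 read 7.92, below the 8.77 of replicate 1, whose coordinate was 0.07. Neither the labels nor the file headers name a batch that matches these arrays, and what separates them was not tested. The coordinate was also used as a covariate, a setting added after the data had been seen. Cxcl1 was then called higher for LPS versus Cntr (adjusted p = 0.00722) and for THC+LPS versus THC (adjusted p = 0.0196). The differences of 0.51 and 0.58 cannot change in this setting, because the coordinate was taken after group means were removed. It was drawn from the same residuals that set the standard errors. P-values with this covariate, here and below, can therefore be too small.

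**Figure D2:**
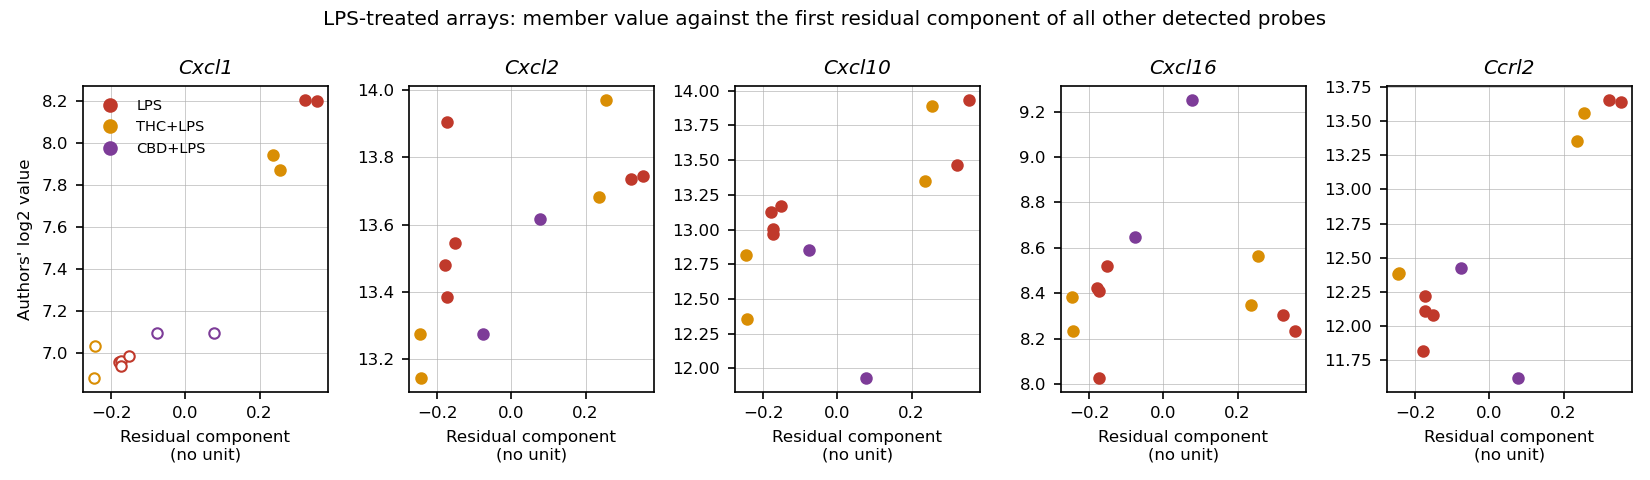
Authors' log2 value of each gene (vertical axes, each with its own range) against the first residual component of all other detected probes (horizontal axis, no unit) on the 12 LPS-treated arrays, with open points where the probe was not detected. Cxcl1 and Ccrl2 are high on the LPS and THC+LPS arrays with coordinates of 0.24 to 0.35, and Cxcl16 is highest on the 2 CBD+LPS arrays. Coordinates are relative to each group's own mean and do not place one group against another.

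CBD alone changed none of the 5 genes at the adjusted threshold, where 2.83% of all probes were called in either direction. The mean differences from Cntr were 0.86 log2 for Cxcl10 (95% interval 0.03 to 1.70, adjusted p = 0.353), 0.81 for Ccrl2 (-0.12 to 1.74, adjusted p = 0.485), 0.54 for Cxcl2 (-0.21 to 1.29, adjusted p = 0.627), 0.32 for Cxcl16 (0.03 to 0.61, adjusted p = 0.311) and -0.08 for Cxcl1 (-0.71 to 0.55, adjusted p = 0.973). Both CBD arrays of Cxcl16 lay above all 6 Cntr arrays, a pattern shown by 6.72% of probes. Without CBD replicate 1 the difference was 0.25 for Cxcl10, 0.47 for Ccrl2 and -0.20 for Cxcl2, and without CBD replicate 2 it was 1.48, 1.15 and 1.28. With the residual component as a covariate, where p-values can be too small, Ccrl2 was called higher (adjusted p = 0.0459).

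THC alone changed none of them either, and of all 24611 probes 1 was called, which is 0.00406%. The differences from Cntr were 0.48 log2 for Cxcl2 (95% interval -0.11 to 1.08), 0.41 for Ccrl2 (-0.33 to 1.14), 0.08 for Cxcl16 (-0.15 to 0.31), 0.06 for Cxcl10 (-0.60 to 0.72) and -0.01 for Cxcl1 (-0.51 to 0.49), each with an adjusted p of 0.999. THC replicate 1 held the highest THC value of Cxcl2, Cxcl16 and Ccrl2. Without it the difference was 0.02 for Cxcl2, 0.13 for Ccrl2 and -0.03 for Cxcl16.

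Under LPS, Cxcl16 was the 1 gene of the 5 called between cells with and without CBD, where 3.9% of all probes were called in either direction. Cxcl16 was 0.63 log2 higher in CBD+LPS than in LPS (SE 0.14, 95% interval 0.34 to 0.92, 1.55-fold, adjusted p = 0.0114), and both CBD+LPS arrays exceeded all 6 LPS arrays. Of all probes, 2.41% were called higher, and 6.96% had both arrays above all LPS arrays. The call rested on CBD+LPS replicate 2, the array at 9.25, for without it the difference was 0.33 (adjusted p = 0.637), and without replicate 1 it was 0.93. It was also lost when these groups were fitted alone (adjusted p = 0.0905).

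Cxcl10 moved the other way in value. It was 0.89 log2 lower in CBD+LPS than in LPS, a change of -45.9% (95% interval -1.72 to -0.05, adjusted p = 0.275), with both arrays below all LPS arrays, as for 7.01% of probes. Without CBD+LPS replicate 1 the difference was -1.35 and without replicate 2 it was -0.42. It was not called in the fit without covariate. It was called with the residual component as one (adjusted p = 0.0387), where p-values can be too small. Ccrl2 differed by -0.56 (-1.49 to 0.36, adjusted p = 0.614), Cxcl1 by -0.28 (-0.91 to 0.35, adjusted p = 0.744) and Cxcl2 by -0.19 (-0.94 to 0.56, adjusted p = 0.874). The Ccrl2 difference was -0.96 or -0.16 with one or the other CBD+LPS array left out.

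THC under LPS left every probe below the threshold, 0% called in either direction by limma, with 879 of 24611 at an unadjusted p under 0.05 and none of the 5 genes among them. THC+LPS minus LPS was 0.33 log2 for Ccrl2 (95% interval -0.40 to 1.07), -0.18 for Cxcl10 (-0.84 to 0.48), -0.11 for Cxcl2 (-0.71 to 0.48), 0.06 for Cxcl16 (-0.17 to 0.30) and 0.06 for Cxcl1 (-0.44 to 0.56). The groups overlapped for all 5 genes. The interval was narrowest for Cxcl16 and widest for Ccrl2.

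**Figure D3:**
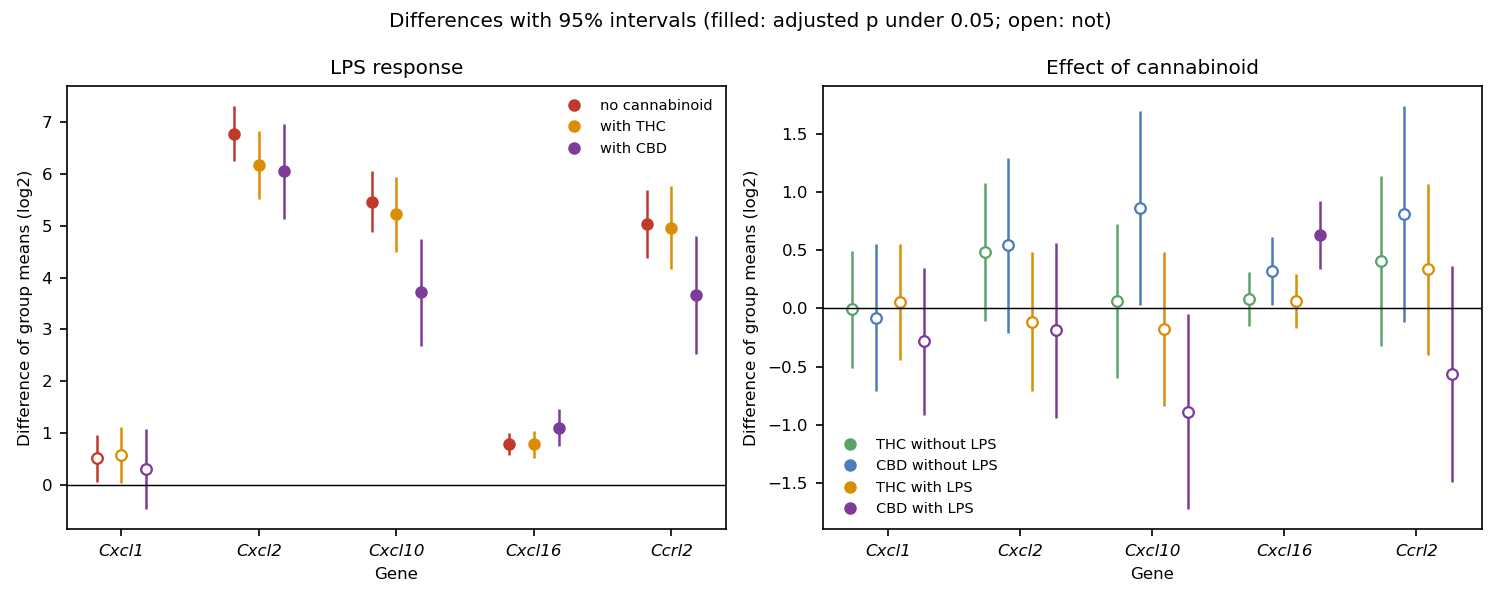
Differences of group means on the log2 scale (vertical axes) with 95% intervals, on the left LPS against its matched group without LPS and on the right each cannabinoid against its matched group without cannabinoid, filled where the adjusted p was under 0.05. In each LPS response 4 genes are called, and on the right Cxcl16 with CBD under LPS (0.63) is the single filled point.

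The isomers were compared at the same dose and time, in 2 comparisons for each gene, with p-values adjusted over all probes. Without LPS, 0.784% of probes were called between CBD and THC and none of the 5 genes was among them. CBD minus THC was 0.80 log2 for Cxcl10 (95% interval -0.09 to 1.69, adjusted p = 0.585), 0.40 for Ccrl2 (-0.58 to 1.39), 0.24 for Cxcl16 (-0.07 to 0.55), 0.06 for Cxcl2 (-0.74 to 0.85) and -0.07 for Cxcl1 (-0.74 to 0.60). Under LPS, 0.922% of probes were called and again none of the 5. Cxcl16 was 0.57 higher in CBD+LPS than in THC+LPS (0.26 to 0.88, adjusted p = 0.0725), with both CBD+LPS arrays above all 4 THC+LPS arrays, as for 8.6% of probes. It passed the threshold with median scaling (adjusted p = 0.0492) and with neqc values (adjusted p = 0.0351), and was 0.87 without CBD+LPS replicate 1 (adjusted p = 0.00359) and 0.26 without replicate 2 (adjusted p = 0.906). Ccrl2 was -0.90 (-1.88 to 0.08, adjusted p = 0.501), Cxcl10 -0.71 (-1.59 to 0.18, adjusted p = 0.587), Cxcl1 -0.34 (-1.01 to 0.33) and Cxcl2 -0.07 (-0.87 to 0.72). With one or the other CBD+LPS array left out, Ccrl2 was -1.30 or -0.50 and Cxcl10 -1.17 or -0.25. With 2 arrays in each CBD group these intervals are wide, and the lack of a call does not show that the isomers acted alike.

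Whether the LPS response itself differed with a cannabinoid was tested as an interaction. No probe was called for CBD (0%, smallest adjusted p = 0.171, with 1117 probes at an unadjusted p under 0.05) or for THC (0%, smallest adjusted p = 1, with 729). The LPS response of Cxcl10 was 1.75 log2 smaller with CBD by estimate, at -1.75 (95% interval -2.93 to -0.57, adjusted p = 0.971), the 11th lowest estimate of all probes. That of Ccrl2 was -1.37 (-2.68 to -0.06, adjusted p = 1), that of Cxcl2 -0.73 (-1.79 to 0.33), that of Cxcl1 -0.20 (-1.09 to 0.69), and that of Cxcl16 was 0.31 (-0.10 to 0.72). Without single arrays the Cxcl10 estimate ranged from -2.36 to -1.13 and the Ccrl2 estimate from -1.77 to -0.97. For Cxcl10 the CBD mean without LPS was above that of Cntr and the CBD+LPS mean was below that of LPS, and this estimate draws on the same arrays as the comparisons above. For THC the estimates were -0.60 for Cxcl2, -0.24 for Cxcl10, -0.07 for Ccrl2, -0.01 for Cxcl16 and 0.07 for Cxcl1, all with intervals that include 0.

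The genes whose values followed each member most closely over the 24 arrays were found by Pearson correlation among probes detected on at least 2 arrays. Those of Cxcl2 were Cdc42ep2 (r = 0.995), the granulocyte growth factor gene Csf3 (0.991) and the cytokine gene Tnf (0.991). Those of Cxcl10 were Csrnp1 (0.989), the chemokine gene Ccl5 (0.987) and Gpr84 (0.986), and those of Ccrl2 were Rhbdf2 (0.990), Ccl5 again (0.989) and Plagl2 (0.988). Cxcl16 was followed by the inflammatory caspase gene Casp4 (0.937), Birc3 (0.936) and the metal transporter gene Slc11a2 (0.934). Cxcl1 was followed by the interferon-inducible gene Ifi205 (0.947), Vmp1 (0.946) and the metalloproteinase gene Mmp10 (0.941). These arrays share 6 treatments, so the arrays are not independent points, and a gene with a large step between arrays with and without LPS correlates with any other that has one.

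Around these 5 genes, other parts of the system were detected unevenly. Each listed gene was read from 1 probe, the one with the highest mean log2 value, and its other probes were left out. Of 13 other CXC, C and CX3C chemokines, 12 were measured and 1 was called, Cxcl9, an interferon-inducible Cxcr3 ligand whose gene lies near Cxcl10. Its means were 6.89 ± 0.05 in Cntr (SD, n = 6), where no array detected it, and 8.57 ± 0.95 in LPS, where all 6 arrays did. The measured differences were 1.68 log2 for LPS versus Cntr (SE 0.33, adjusted p = 0.000607), 1.32 for THC+LPS versus THC (SE 0.40, adjusted p = 0.0394) and 0.86 for CBD+LPS versus CBD (SE 0.57, adjusted p = 0.61). No array without LPS detected it, and the lower bounds set by the detection limit were 2.65-fold over Cntr and 1.96-fold over THC. In CBD+LPS 1 of 2 arrays detected it. With neqc values Cxcl9 was called in none of these comparisons. Pf4 and Cxcl14 were detected on all 24 arrays and not called. Cxcl14 has 2 probes, and this holds for the brighter one alone. The study's text lists Cxcl14 as lower with CBD, alone and with LPS. The other Cxcl14 probe was not examined here. Cxcl3, Cxcl5, Cxcl12, Cxcl15, Cxcl17 and Xcl1 were detected on none. The list's median difference for LPS versus Cntr was -0.01, the same as over all probes.

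All 6 CXC chemokine receptors were measured, and 1 was called. Cxcr4, the receptor of Cxcl12, fell from 10.55 ± 0.50 in Cntr to 8.21 ± 0.08 in LPS (SD, n = 6 each), a difference of -2.34 log2 (SE 0.17, -80.3%, adjusted p = 2.94e-10). It fell by 2.25 with LPS in THC-treated cells (SE 0.21, adjusted p = 5.33e-08) and by 2.65 in CBD-treated cells (SE 0.29, adjusted p = 6.55e-06). Of all probes, 7.94% were called lower for LPS versus Cntr, 4.81% for THC+LPS versus THC and 1.51% for CBD+LPS versus CBD. Cxcr3, the receptor of Cxcl10 and Cxcl9, was detected on 19 arrays, with means of 8.34 ± 0.72 in Cntr and 7.70 ± 0.68 in LPS, and was not called, except with the residual component as a covariate. The Cxcl1 and Cxcl2 receptor Cxcr2, its relative Cxcr1 and the Cxcl16 receptor Cxcr6 were detected on no array, nor were any of the 4 atypical receptors Ackr1 to Ackr4. Chemerin (Rarres2), the attractant that Ccrl2 binds, and its signalling receptors Cmklr1 and Gpr1 were also detected on no array.

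Of 6 proteases known to cut CXC chemokines, Adam17, which sheds membrane proteins and can release Cxcl16, was called higher in each LPS response, by 1.03 log2 over Cntr (SE 0.13, adjusted p = 1.43e-06), by 0.91 in THC-treated cells (adjusted p = 0.000207) and by 0.87 in CBD-treated cells (adjusted p = 0.0238), a call that was lost with median scaling. The other 5 were not called, and Adam10, the other known Cxcl16 sheddase, was detected on no array. Adam10 has a single probe, which cannot tell an absent transcript from a weakly reading probe. Transcripts of Cxcl1 and Cxcl2 are known to be short-lived through AU-rich elements, and 6 of 8 listed regulators of such decay were measured. Zfp36, whose protein promotes decay, rose by 1.47 with LPS (SE 0.16, adjusted p = 1.85e-07). Zc3h12a, an endonuclease that cuts inflammatory transcripts, rose by 1.45 as measured (SE 0.18, adjusted p = 1.19e-06). No Cntr array detected it, and the lower bound set by the detection limit was 2.24-fold. The kinase gene Mapkapk2, whose product inactivates the Zfp36 protein, rose by 1.33 (SE 0.12, adjusted p = 7.68e-09). Zfp36l1 fell by 1.01 (SE 0.16, adjusted p = 4.65e-05). These 4 were called in the same directions in THC-treated and CBD-treated cells. In the latter, the calls of Zfp36 and Zc3h12a depended on single arrays of the CBD groups. With those groups fitted alone only Mapkapk2 was called. For LPS versus Cntr, 5.63% of all probes were called higher and 7.94% lower. The median over the decay regulators was 0.72, against -0.01 over all probes. In all 6 lists no gene was called for either cannabinoid, alone or under LPS, at the 1 probe used for it. Some genes, among them Cxcl14 and Zfp36l1, have further probes that were not examined. Zfp36 and Zfp36l1 each differed by -0.69 between CBD+LPS and LPS (adjusted p = 0.0877 and 0.0948).

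**Figure D4:**
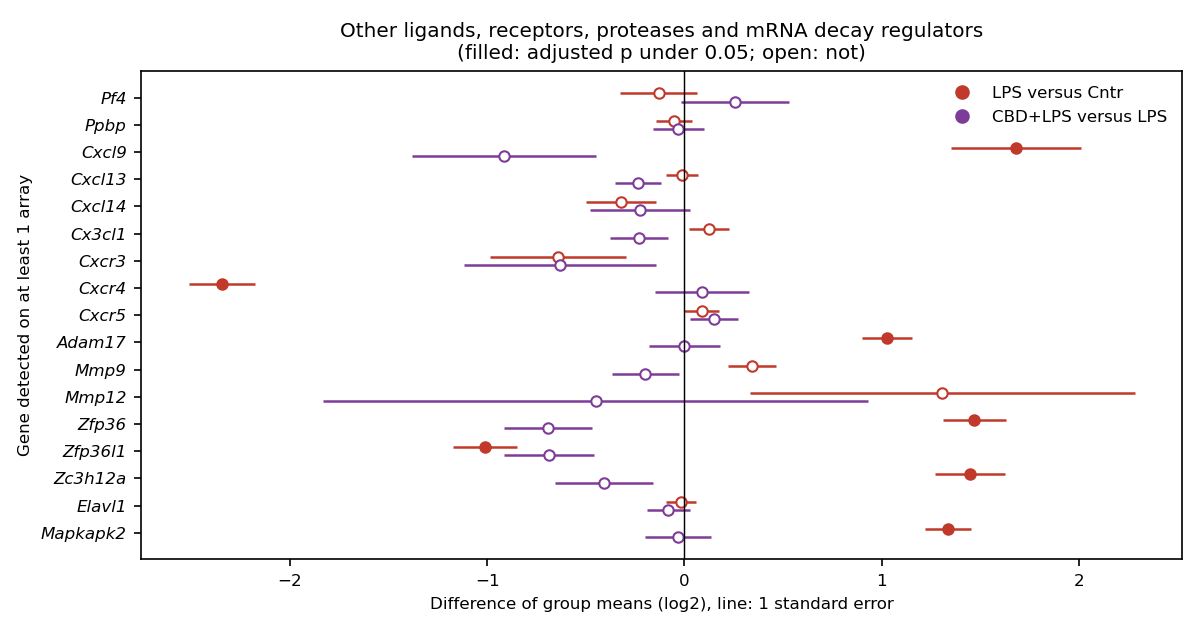
Difference of group means on the log2 scale (horizontal axis, lines of 1 standard error) for genes of the 6 other lists detected on at least 1 array, for LPS versus Cntr and for CBD+LPS versus LPS, filled where the adjusted p was under 0.05. Cxcl9, Adam17, Zfp36, Zc3h12a and Mapkapk2 are called higher and Cxcr4 and Zfp36l1 lower with LPS, and no point of CBD+LPS versus LPS is filled.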

How the data were processed

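Biotin-labelled RNA of 24 samples of BV-2 cells was hybridized by the authors to Illumina MouseRef-8 arrays. The deposited raw table holds an intensity and a detection p-value for each probe and array, computed by the authors' array software (settings not given in the sources used here). The authors' log2 values of 24611 probes differed by at most 0.0267 from quantile-normalized log2 intensities without background correction, and were used as they stand. Of the probes, 19852 carry 1 gene symbol in the platform annotation and 4759 carry none. R 4.3.3 with limma 3.58.1 fitted 6 group means to all 24 arrays (lmFit and eBayes, checked on simulated data), with Benjamini-Hochberg adjustment over all probes, so adjusted p-values in the text are limma's. Intervals are 95% intervals of that fit. Fold bounds set the mean of the brighter group against each dim array's lowest detected signal. They do not cover the spread between arrays or the background correction. Named genes are the 5 members, up to 4 called genes per list and comparison, and the 3 best correlated genes per member. The members and gene lists were chosen with earlier results of these data known. Alternatives were neqc background correction (offset 16), median scaling, a filter on detection, an intensity trend, the compared groups alone, array weights (statmod 1.5.0), the replicate number as a block, an unadjusted p of 0.005 or less, and leaving out each array. Same-numbered arrays were not paired by any label. The number of arrays limits the precision.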

Additional observations from a re-analysis of the deposited data

Results flagged for a closer look

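Cxcl16 on THC replicate 1 read 7.93 (7.928 before rounding), apart from the other 3 THC arrays at 7.45 to 7.52, and its gap to the nearest of them took up 0.857 of the group's range, above Dixon's limit of 0.829 for 4 samples. The same array held the highest THC values of Cxcl2 and Ccrl2. It was the 1 value marked in 20 combinations of gene and group tested, and chance marks about 1 in 20.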

How the results depend on the processing

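The 4 calls for LPS versus Cntr and for THC+LPS versus THC were kept under every alternative run, and those for CBD+LPS versus CBD under all but one, for 2 of the 4 (Cxcl2 and Ccrl2) were called when these groups were fitted alone, where 115 of 24611 probes were called against 811. Sizes depended on background correction, and with neqc values the LPS response was 5.95 log2 for Cxcl2 and 0.34 for Cxcl16. For CBD+LPS versus LPS, where Cxcl16 was called, 0 genes were called with the groups fitted alone and with the replicate block (Cxcl16 adjusted p = 0.0504), between 0 and 1 with each array left out (0 without CBD+LPS replicate 2), and 2 with the residual component, a setting added after the data were seen. For CBD versus Cntr, 1 was called with that component. For CBD+LPS versus THC+LPS, 1 gene (Cxcl16) was called with neqc values, median scaling, the unadjusted threshold and the residual component, and 0 to 1 with each array left out (1 without THC replicate 1 or CBD+LPS replicate 1). The cause of these changes was not tested.

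Replicate numbers did not pair the arrays, since 16 of 44 same-number pairs correlated above 0.1 in their deviations from the group means and 6 of 24 arrays correlated best with their own number. With the replicate block, 606 probes in place of 961 were called for CBD+LPS versus LPS, and no call of the 5 genes other than Cxcl16 changed. CBD and CBD+LPS arrays of one number correlated at -0.682, and with crossed numbers, added after the data were seen, the 4 calls stayed and 842 probes were called.

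Differences that changed sign were all uncalled. With neqc values these were Cxcl10 for THC versus Cntr (-0.0364), Cxcl1 for THC+LPS versus LPS (-4e-04), Cxcl2 for CBD versus THC (-0.0156), and, for the THC interaction, Cxcl16 (0.0066) and Ccrl2 (0.1676). With the replicate block they were Cxcl10 for THC versus Cntr (-0.1279), Cxcl1 for THC+LPS versus LPS (-0.021) and Cxcl2 for CBD versus THC (-0.0617). The THC interaction was 0.0599 for Cxcl16 with median scaling and 0.0636 for Ccrl2 with array weights. With each array left out, Cxcl2 ranged from -0.1975 to 1.2788 for CBD versus Cntr, from -0.6823 to 0.794 for CBD versus THC, from -0.2647 to 0.0103 for THC+LPS versus LPS, from -0.2439 to 0.0968 for CBD+LPS versus THC+LPS and from -1.4665 to 0.0098 for the CBD interaction. Cxcl1 ranged from -0.0638 to 0.0459 for THC versus Cntr, from -0.1129 to 0.2404 for THC+LPS versus LPS and from -0.1044 to 0.249 for the THC interaction. Cxcl10 ranged from -0.0769 to 0.3107, from -0.438 to 0.0716 and from -0.5011 to 0.0085 in the same 3 comparisons. Cxcl16 ranged from -0.0322 to 0.1276 for THC versus Cntr and from -0.0746 to 0.0955 for the THC interaction, and Ccrl2 from -0.2833 to 0.2003 for the latter. Signals near background limit Cxcl1 everywhere and Cxcl2 without LPS.

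The same alternatives were applied to the other gene lists after the data were seen. Of the other chemokines, 0 were called with neqc values for LPS versus Cntr and for THC+LPS versus THC, and for the latter also 0 with the replicate block and 0 to 1 with each array left out. With the residual component, 2 receptors (Cxcr3 and Cxcr4) were called for LPS versus Cntr and THC+LPS versus THC, and 1 (Cxcr3) for CBD versus Cntr, CBD+LPS versus LPS and both isomer comparisons. Proteases called for LPS versus Cntr numbered 2 (with Mmp9) under the detection filter, the groups alone and array weights, 1 to 2 with each array left out and 3 with the residual component. For CBD+LPS versus CBD they numbered 0 with median scaling, the groups alone and array weights, 0 to 1 with each array left out and 2 with the residual component, which also gave 2 for THC+LPS versus THC. Of the decay regulators, 1 (Mapkapk2) was called for CBD+LPS versus CBD with the groups alone and 2 to 4 with each array left out. For CBD+LPS versus LPS, 1 (Zfp36) was called with the replicate block, the unadjusted threshold and the residual component, and 0 to 1 with each array left out.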
